A study of Mus musculus with 18 samples.

Results

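The 9 genes described here are the secreted Wnt inhibitors Sfrp1, Sfrp2, Sfrp4, Sfrp5, Frzb, Dkk2, Dkk3 and Wif1, and Axin2, a gene whose mRNA is read as a measure of Wnt signaling. They were taken from the 54281 genes of the deposited count table by their symbols, with earlier results of these data known. RNA was sequenced from whole descending aortas of 18 male C57BL/6 mice, with 6 mice in each of 3 groups. HGPS mice, of genotype LMNAG609G, were 64 to 75 d old. They carry the mutation at the endogenous Lmna locus and express progerin from it. The study defines its HGPS mouse as homozygous for the mutation, while the genotype label gives no zygosity. Progerin is a truncated lamin A that causes Hutchinson–Gilford Progeria Syndrome. WT mice of the 2-mo group were 62 d old in 5 cases and 95 d old in 1, and WT mice of the 24-mo group were 609 to 762 d old. The aortas ran from the end of the arch to the diaphragm, were cleaned after removal and held all layers of the wall. All mice ate chow. By the study's methods, WT mice were bought and the mutant line came from another laboratory, and whether the 2-mo WT mice were littermates of the HGPS mice is not stated.

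Wnt proteins are secreted ligands that bind Frizzled receptors and Lrp co-receptors on the cell surface. Binding stops a cytoplasmic destruction complex from degrading β-catenin, which then enters the nucleus and turns on target genes. Secreted Frizzled-related proteins and Wif1 bind the ligands, whereas Dickkopf proteins act on the co-receptors. In arteries, the pathway is known for roles in smooth muscle growth and in calcification of the wall.

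The aortas yielded 12413229 to 30844775 counts per mouse. The unit of level is CPM, a gene's counts relative to the size of its library after TMM scaling, and edgeR's quasi-likelihood test was run over the 15210 genes that reached 10 counts in 6 mice or more, with p-values adjusted over all of them. Of the 9 genes, 8 passed this filter and Sfrp5 did not. Markers of smooth muscle, the main cell type of the wall, were abundant throughout, and the only marker gene at 0 in a whole group was the cartilage marker Matn1, in 24-mo WT. The summed CPM of 6 smooth muscle markers was 19397 to 27187 in HGPS, 29327 to 37790 in 2-mo WT and 30258 to 34466 in 24-mo WT, and 5 of the 6 were lower in HGPS than in 2-mo WT (adjusted p under 0.05). The 7 fibroblast markers summed to 5848 to 9944 CPM in HGPS, 8502 to 11058 in 2-mo WT and 5531 to 7982 in 24-mo WT, with 3 lower in HGPS and 4 lower at 24 mo. All 6 brown fat markers and 5 of 6 white fat markers were higher in HGPS than in 2-mo WT. Their sums were 434 to 1569 and 608 to 1766 CPM in HGPS, against 106 to 548 and 136 to 694 CPM in 2-mo WT and 107 to 335 and 166 to 672 CPM in 24-mo WT. In bulk RNA, fewer cells of a type and less RNA per cell cannot be told apart.

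Between HGPS and 2-mo WT aortas, the inhibitors moved in different directions. Frzb rose to 2.07 times its WT level, Sfrp2 fell to 0.616 times, and Wif1 and Dkk3 rose by smaller amounts. Axin2 did not pass the test. In all, 4 of the 8 tested genes passed, 3 higher and 1 lower, beside 43.2% of all genes tested in this comparison (22% higher and 21.2% lower). At the 1.5-fold change and adjusted p under 0.001 that the study used as cut-offs, 2 of the 8 passed (Sfrp2 and Frzb), beside 9.5% of all genes tested.

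With age in WT mice, Sfrp1 fell to 0.519 times its 2-mo level, Wif1 and Dkk3 rose, and the other 5 tested genes did not pass, among them Frzb, Sfrp2 and Axin2. These 3 of 8 genes, 2 higher and 1 lower, stand beside 11.7% of all genes tested (6.29% higher and 5.38% lower). In 0 of the 8 were the groups of 6 mice fully apart, beside 6.28% of all genes. At the study's cut-offs, 0 of the 8 passed edgeR's test, beside 2% of all genes. In the direct comparison of HGPS with 24-mo WT, 5 of the 8 genes passed, with Sfrp1, Sfrp4, Frzb and Dkk2 higher and Sfrp2 lower in HGPS. Of all genes tested, 47.3% passed there (23.8% higher and 23.6% lower), and at the study's cut-offs 3 of the 8 passed, beside 12.1%. Both of the first comparisons use the same 2-mo WT mice.

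**Figure D1:**
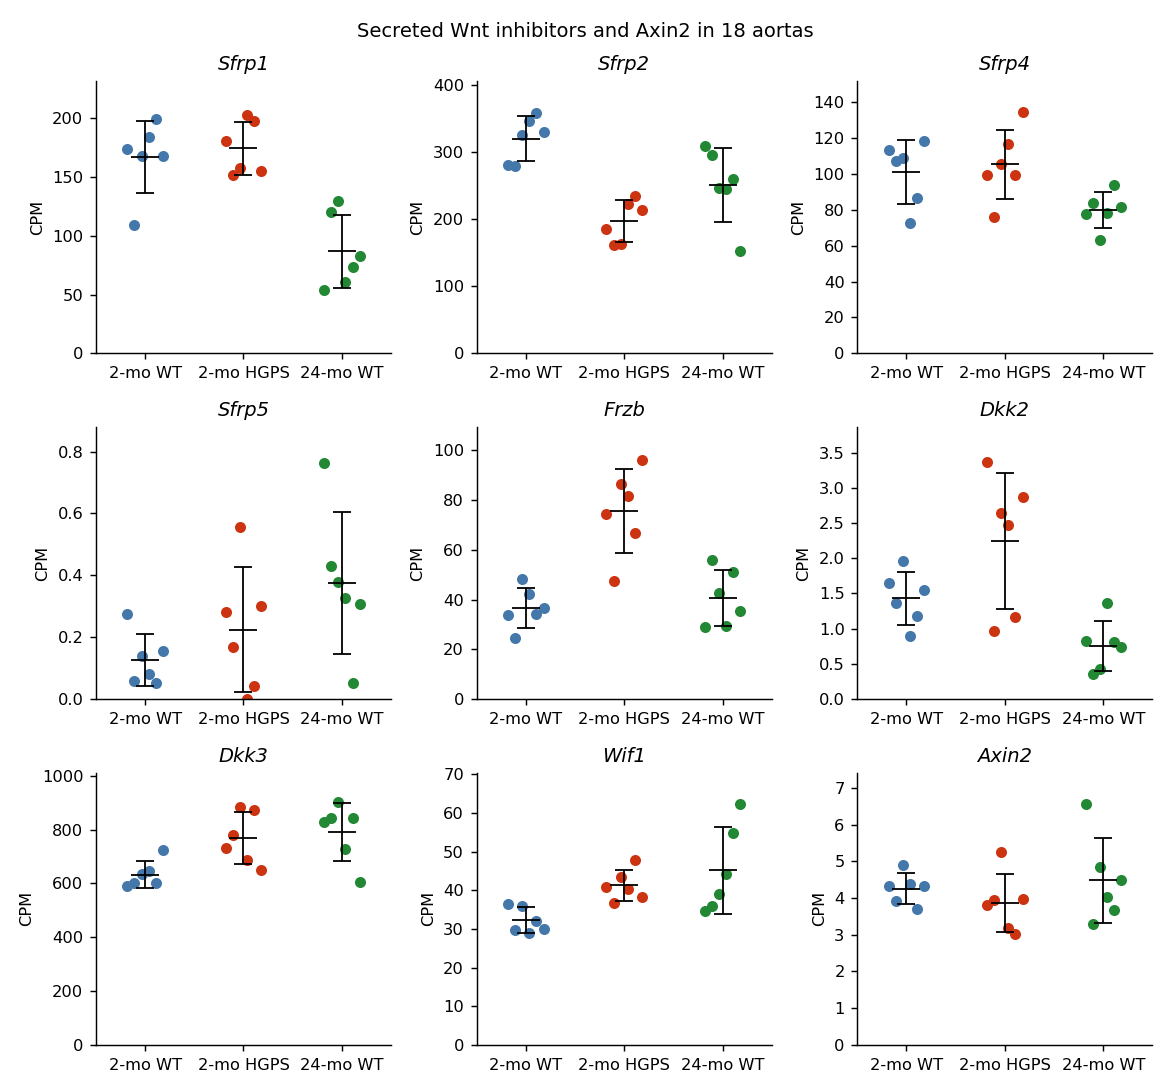
CPM of each gene in each mouse (points), with the mean and SD of the 6 mice of a group (black), on linear axes that start at 0. The 6 HGPS mice lie below all 2-mo WT mice for Sfrp2 (highest HGPS 235 CPM, lowest WT 279 CPM), and 24-mo WT mice lie lowest for Sfrp1 (53.9 to 129 CPM).

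Sfrp2 and Frzb, both secreted proteins with a Frizzled-like domain that binds Wnt ligands, changed most in HGPS. Sfrp2 (chromosome 3, 83766321 to 83774316, GRCm38, plus strand) lay between 279 and 359 CPM in 2-mo WT, with a median of 328. In HGPS it lay between 162 and 235 CPM, with a median of 200.03. In 24-mo WT it lay between 152 and 309 CPM, with a median of 253. All 6 HGPS mice were thus below all 6 young WT mice, as were the groups of 21.9% of all genes tested in one direction or the other, and the old WT mice overlapped both. The means (± SD, n = 6 each) were 197 ± 31.1 CPM in HGPS, 320.3 ± 33.5 CPM in 2-mo WT and 252 ± 55.4 CPM in 24-mo WT. In HGPS the log2 fold change was -0.70 (SE 0.14, edgeR adjusted p = 0.000438). At 24 mo it was -0.35 against 2-mo WT (SE 0.14, edgeR adjusted p = 0.107), with a 95% interval of -0.63 to -0.065.

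The call of Sfrp2 in HGPS was lost with fat or fibroblast marker scores in the model. With the mean log2 CPM of brown fat and white fat markers as covariates, the log2 fold change was -0.53 (edgeR adjusted p = 0.0608), and with fibroblast markers it was -0.27 (edgeR adjusted p = 0.295). What part of the difference these tissues account for was not tested. HGPS was also lower than 24-mo WT by a log2 fold change of -0.35 (edgeR adjusted p = 0.039), and this call was lost when any 1 of several mice was left out (HGPS mouse 1, 2 or 3, or 24-mo WT mouse 1, 2, 3 or 5), with adjusted p up to 0.0971. With the replicate number as a block it was 0.0592. In all, 13 of 23 alternatives lost this call, among them the fat marker covariates and the alternatives that use endothelial markers, described below. Over the 23, log2 fold changes were -0.48 to -0.16, with edgeR adjusted p up to 0.649.

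Frzb (chromosome 2, 80411970 to 80447625, minus strand), first found in cartilage, lay between 24.3 and 48.4 CPM in 2-mo WT, with a median of 35.3. In HGPS the range was 47.4 to 95.8 CPM, with a median of 78.1. In 24-mo WT it was 28.9 to 55.7 CPM, with a median of 39.1. A single HGPS mouse, mouse 2, fell just below the highest young WT mouse, and the other 5 were above every WT mouse of either age. Means (± SD, n = 6 each) were 75.5 ± 17.0 CPM in HGPS, 36.5 ± 8.15 CPM in 2-mo WT and 40.5 ± 11.2 CPM in 24-mo WT. The log2 fold change in HGPS was 1.05 against 2-mo WT (SE 0.19, edgeR adjusted p = 0.000203) and 0.90 against 24-mo WT (SE 0.19, edgeR adjusted p = 6e-04). Between the WT ages the value was 0.15, with a 95% interval of -0.24 to 0.54 (edgeR adjusted p = 0.677).

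Frzb passed the test in HGPS under every alternative that was run, with log2 fold changes of 0.95 to 1.46, and the highest of these came with the fat marker covariates (edgeR adjusted p = 0.000915). Markers of cartilage summed to 115 to 226 CPM in HGPS, 75.9 to 113 CPM in 2-mo WT and 111 to 177 CPM in 24-mo WT. Most of the HGPS sum came from Comp (mean 105 CPM) and Acan (54.5 CPM). The cartilage markers Sox9, Col9a1, Col2a1 and Matn1 had HGPS means of 1.52, 0.479, 0.0770 and 0.00700 CPM. Of the 4 cartilage markers tested, 2 rose in HGPS (Comp and Acan), Col9a1 and Sox9 did not pass there, and 2 rose at 24 mo. The sums of HGPS and 24-mo WT overlapped. Their part in the Frzb difference was not tested.

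Sfrp1 was the inhibitor with the lowest adjusted p between the WT ages. The gene (chromosome 8, 23411502 to 23449632, plus strand) encodes a Wnt-binding antagonist made by many tissues. It lay between 109 and 199 CPM in 2-mo WT, with a median of 171, and between 152 and 203 CPM in HGPS, with a median of 169. In 24-mo WT the range was 53.9 to 129 CPM, with a median of 78.2. The young groups thus lay over each other, and all old WT mice but mice 2 and 3 were below every young mouse. Means (± SD, n = 6 each) were 174 ± 22.7 CPM in HGPS, 167 ± 30.7 CPM in 2-mo WT and 86.7 ± 31.3 CPM in 24-mo WT.

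The log2 fold change of Sfrp1 between the WT ages was -0.95 (SE 0.19, 95% interval -1.34 to -0.56, edgeR adjusted p = 0.00204). HGPS exceeded 24-mo WT by 1.01 on the log2 scale (SE 0.19, edgeR adjusted p = 0.000211), with all 6 HGPS mice above all 6 old WT mice, as was so in one direction or the other for 22.2% of all genes tested. HGPS and 2-mo WT differed by 0.063 on that scale, with a 95% interval of -0.32 to 0.45 (edgeR adjusted p = 0.813).

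Within groups, Sfrp1 went with the level of endothelial mRNA. The 6 endothelial markers summed to 876 to 1169 CPM in HGPS, but 4 WT aortas were low, at 534 CPM in young mouse 2 and at 473, 505 and 592 CPM in old mice 1, 4 and 5. Sfrp1 was 109 CPM in that young mouse, the lowest of its group, and 53.9, 60.4 and 73.2 CPM in those old mice. In the other old mice, whose endothelial sums were 1023 to 1339 CPM, it was 83.2, 120 and 129 CPM, and in the other young WT mice it was 168 to 199 CPM.

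Alternatives that use the endothelial markers were chosen after seeing these values. As a covariate, the mean log2 CPM of those markers gave a log2 fold change of Sfrp1 between the WT ages of -0.93 (edgeR adjusted p = 0.000195). Without the 4 low aortas it was -0.69 (edgeR adjusted p = 0.00506), from 5 young and 3 old WT mice. With the fibroblast markers as a covariate the estimate was -1.07 and did not pass (edgeR adjusted p = 0.15). None of the 6 endothelial markers itself passed edgeR's test between the WT ages. The part of endothelial or fibroblast RNA in the Sfrp1 difference was not tested further.

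**Figure D2:**
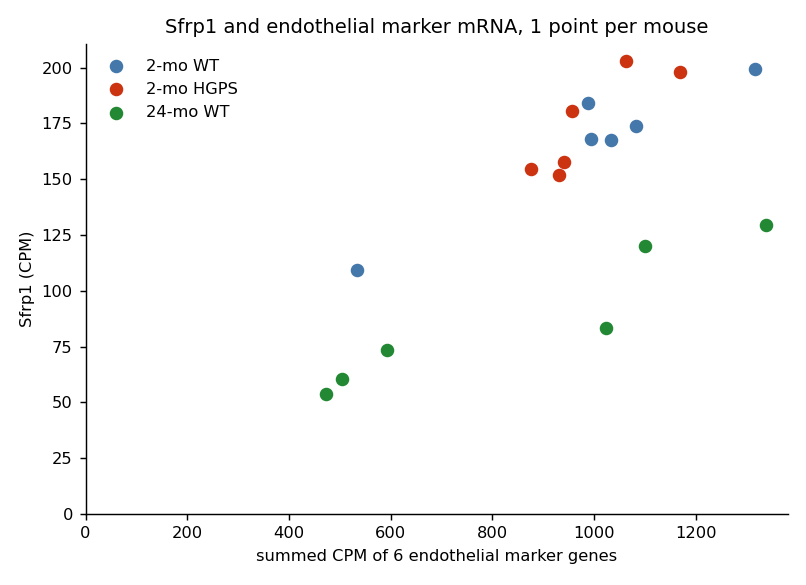
Sfrp1 (CPM, vertical axis) against the summed CPM of 6 endothelial marker genes (horizontal axis), 1 point per mouse, colored by group. The 4 WT aortas with sums of 473 to 592 CPM have Sfrp1 at 53.9 to 109 CPM, and the other old WT mice lie at 83.2 to 129 CPM and the other young mice of both genotypes at 152 to 203 CPM.

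Sfrp4 and Sfrp5 complete the family. Sfrp4 (chromosome 13, 19623104 to 19632994, plus strand), an antagonist also known from bone and adipose tissue, lay between 76.2 and 134 CPM in HGPS, with a median of 102. It lay between 72.4 and 118 CPM in 2-mo WT (median 108) and between 63.1 and 94.0 CPM in 24-mo WT (median 80.0). All groups overlapped, with the old WT mice toward the low end. HGPS and 2-mo WT differed by a log2 fold change of 0.057 (95% interval -0.21 to 0.33, edgeR adjusted p = 0.756) and the WT ages by -0.34 (edgeR adjusted p = 0.0967). HGPS was higher than 24-mo WT by 0.40 (SE 0.13, edgeR adjusted p = 0.016), a call that was lost with the fat markers as covariates (0.42, edgeR adjusted p = 0.193). The difference between the WT ages passed when young mouse 4 was left out (-0.42, edgeR adjusted p = 0.0336).

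Sfrp5 (chromosome 19, 42197971 to 42202252, minus strand), best known from adipose tissue, was close to the floor of the measurement, with 80 counts in all 18 mice together. It lay between 0 and 0.557 CPM in HGPS, between 0.0535 and 0.275 CPM in 2-mo WT and between 0.0509 and 0.762 CPM in 24-mo WT. The groups overlapped. Its mean was 0.376 CPM in 24-mo WT and 0.127 CPM in 2-mo WT (two-sided exact permutation test, n = 6 and 6, p = 0.026, adjusted over the 3 comparisons 0.078), and that in HGPS was 0.225 CPM (exact p = 0.327 against 2-mo WT). With 1 mouse left out, the exact permutation p between the WT ages was 0.00433 (without old mouse 5) to 0.0455. No difference passed after adjustment with all mice, and a few counts per mouse limit what can be seen.

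Dkk3 and Wif1 were higher in both HGPS and 24-mo WT than in 2-mo WT, by modest amounts. Dkk3 (chromosome 7, 112116017 to 112159057, minus strand) encodes a divergent Dickkopf protein whose action on Wnt signaling differs from that of the others. It lay between 589 and 723 CPM in 2-mo WT (median 620), between 652 and 886 CPM in HGPS (median 756) and between 604 and 904 CPM in 24-mo WT (median 836). The groups overlapped, with the middle of both shifted above the young WT mice. Means (± SD, n = 6 each) were 769 ± 96.6 CPM in HGPS, 633 ± 49.3 CPM in 2-mo WT and 792 ± 108 CPM in 24-mo WT. The log2 fold change was 0.28 in HGPS (SE 0.10, edgeR adjusted p = 0.0232) and 0.32 at 24 mo (SE 0.10, edgeR adjusted p = 0.0324), and HGPS differed from 24-mo WT by -0.043 (95% interval -0.24 to 0.16).

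The calls of Dkk3 were close to the threshold, while the log2 fold change with 1 mouse left out was 0.24 to 0.32 in HGPS and 0.28 to 0.39 at 24 mo. In HGPS, the adjusted p was 0.0508 to 0.0587 without HGPS mouse 3 or 5 or without young WT mouse 2 or 5, 0.0608 without the 4 aortas low in endothelial markers, and 0.0594 and 0.413 with the fat or the fibroblast markers as covariates. At 24 mo it was 0.0530 to 0.0726 without any 1 of young mice 1 to 5 or of old mice 1, 2, 3 and 5, 0.0523 with the replicate number as a block, 0.0644 with no filter on low counts, 0.183 without the 4 aortas and 0.581 with the fibroblast markers.

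Wif1 (chromosome 10, 121033960 to 121100650, plus strand) encodes Wnt inhibitory factor, which binds Wnt ligands through a domain unlike that of the Sfrps. In 2-mo WT it lay between 29.0 and 36.6 CPM, with a median of 31.02, and in HGPS between 36.7 and 47.9 CPM, with a median of 40.6. In 24-mo WT it lay between 34.6 and 62.4 CPM, with a median of 41.7. The HGPS mice were all above the young WT mice, by a margin of under 1 CPM at the closest, and the old WT mice overlapped both. The log2 fold change was 0.36 in HGPS (SE 0.12, edgeR adjusted p = 0.0261), 0.49 at 24 mo (SE 0.12, edgeR adjusted p = 0.0138) and -0.13 between HGPS and 24-mo WT (edgeR adjusted p = 0.397).

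The call of Wif1 in HGPS was lost without HGPS mouse 5 or young WT mouse 2, 4 or 6, with adjusted p of 0.0521 to 0.0606 and log2 fold changes of 0.31 to 0.39 over all mice left out in turn. It was also lost with each of the marker covariates, with adjusted p of 0.0541 (endothelium), 0.179 (fat) and 0.514 (fibroblast) and log2 fold changes of 0.32, 0.36 and 0.19. At 24 mo it was lost with the fat markers (0.0838), with the fibroblast markers (0.583) and without the 4 aortas low in endothelial markers (0.0523).

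Dkk2 (chromosome 3, 132085292 to 132180304, plus strand), a Dickkopf protein that binds the Lrp co-receptors, was rare, with 5 to 79 counts per mouse. It lay between 0.966 and 3.36 CPM in HGPS (median 2.56), between 0.892 and 1.96 CPM in 2-mo WT (median 1.46) and between 0.359 and 1.36 CPM in 24-mo WT (median 0.777). HGPS mice 2 and 5 were within the young WT range, and the other 4 were above every WT mouse. HGPS exceeded 24-mo WT by 1.55 on the log2 scale (SE 0.34, edgeR adjusted p = 0.00094). Against 2-mo WT, neither HGPS (0.64, 95% interval -0.03 to 1.30, edgeR adjusted p = 0.116) nor 24-mo WT (-0.91, 95% interval -1.63 to -0.19, edgeR adjusted p = 0.0977) passed. The first of these passed without HGPS mouse 2 (0.80, edgeR adjusted p = 0.0439). The second passed without old mouse 4 (-1.16, edgeR adjusted p = 0.0415) and with the fat markers as covariates (-1.50, edgeR adjusted p = 0.0229).

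**Figure D3:**
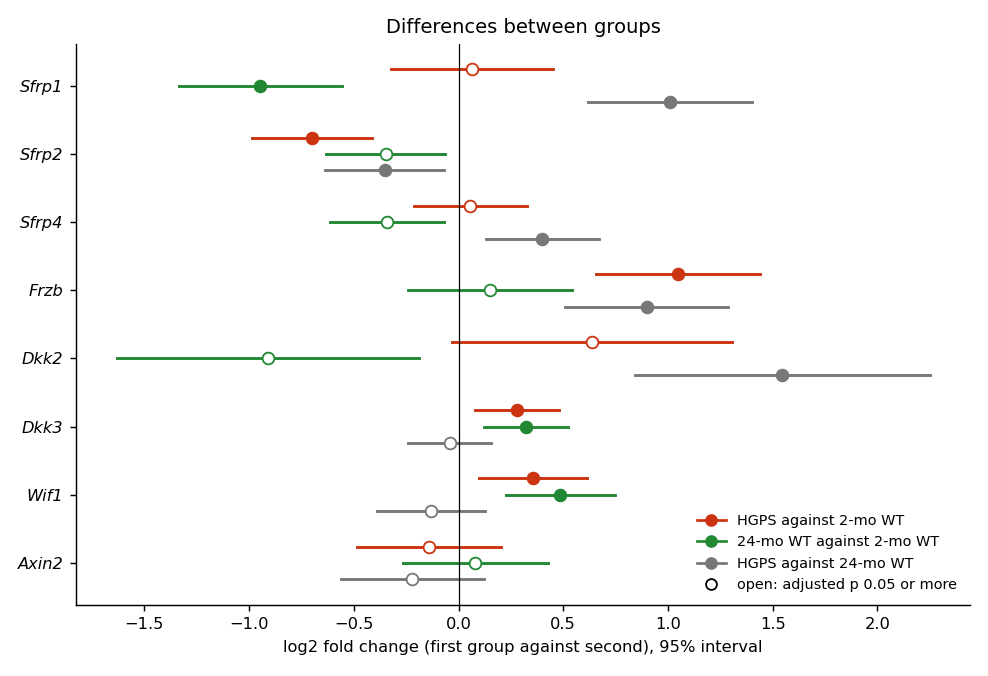
Log2 fold changes of the 8 tested genes in each comparison (points) with 95% intervals (lines), filled where the adjusted p was under 0.05. Frzb and Sfrp2 lie to opposite sides in HGPS against 2-mo WT (1.05 and -0.70), Sfrp1 moves at 24 mo (-0.95), and all 3 intervals of Axin2 cross 0.

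Axin2 (chromosome 11, 108920349 to 108950783, plus strand) encodes a scaffold of the β-catenin destruction complex. Its transcription is turned on by β-catenin, so that its mRNA serves as a readout of the pathway. It lay between 3.01 and 5.24 CPM in HGPS (median 3.88), between 3.69 and 4.89 CPM in 2-mo WT (median 4.33) and between 3.30 and 6.56 CPM in 24-mo WT (median 4.27). The groups overlapped, and the young WT mice lay within the range of both others. Means (± SD, n = 6 each) were 3.86 ± 0.789 CPM in HGPS, 4.25 ± 0.417 CPM in 2-mo WT and 4.49 ± 1.16 CPM in 24-mo WT.

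No difference in Axin2 passed the test. The log2 fold change was -0.14 in HGPS against 2-mo WT (SE 0.16, 95% interval -0.48 to 0.20, edgeR adjusted p = 0.522). Between the WT ages it was 0.080 (95% interval -0.26 to 0.42, edgeR adjusted p = 0.82), and between HGPS and 24-mo WT it was -0.22 (95% interval -0.56 to 0.12, edgeR adjusted p = 0.282). With 46 to 113 counts per mouse, these intervals are what the depth and the spread between mice allow.

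Levels of different genes can be compared only per length, as CPM per kb of exon. On that scale Dkk3 was the most abundant of the 9 in every group, at 188 ± 14.7 CPM per kb (SD, n = 6) in 2-mo WT, followed by Sfrp2 at 149 ± 15.6 and Sfrp1 at 38.2 ± 7.03. Sfrp4 followed at 24.2 ± 4.25, Wif1 at 13.3 ± 1.37 and Frzb at 11.3 ± 2.52 CPM per kb, the last pair within their spread of each other. Axin2 (0.773 ± 0.0757), Dkk2 (0.386 ± 0.101) and Sfrp5 (0.0670 ± 0.0441) were far lower. In HGPS the order was the same but for Frzb, which at 23.3 ± 5.24 CPM per kb stood above Wif1 at 17.0 ± 1.64 and within the spread of Sfrp4 at 25.2 ± 4.66. In 24-mo WT, Sfrp1 at 19.8 ± 7.16, Sfrp4 at 19.1 ± 2.40 and Wif1 at 18.6 ± 4.60 CPM per kb lay within each other's spread.

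The summed level of the 8 inhibitors was close in the 3 groups, at 427 ± 31.9 CPM per kb in HGPS, 425 ± 29.6 in 2-mo WT and 423 ± 54.6 in 24-mo WT (each SD, n = 6). Without Dkk3, whose action differs from that of the others, the sum was 198 ± 24.5 CPM per kb in HGPS, 236 ± 20.7 in 2-mo WT and 187 ± 24.6 in 24-mo WT. Sfrp2 made up 35.0% of the sum in 2-mo WT, 21.5% in HGPS and 27.6% in 24-mo WT. Dkk3 made up 44.4%, 53.7% and 55.7%. Frzb was 2.66% of the sum in 2-mo WT and 5.47% in HGPS, and Sfrp1 went from 8.99% in 2-mo WT to 4.69% in 24-mo WT. The 5 genes of the Sfrp family alone summed to 223 ± 20.7 CPM per kb in 2-mo WT, 180 ± 23.7 in HGPS and 169 ± 28.1 in 24-mo WT. Sost, another secreted Wnt inhibitor described below, is not one of the 9 genes and is in none of these sums. Its own level was 408 ± 16.0 CPM per kb in 2-mo WT, 238 ± 12.9 in HGPS and 466 ± 58.2 in 24-mo WT (each SD, n = 6). The closeness of the sums thus holds for these 8 genes only. These sums and shares are descriptions and were not tested.

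**Figure D4:**
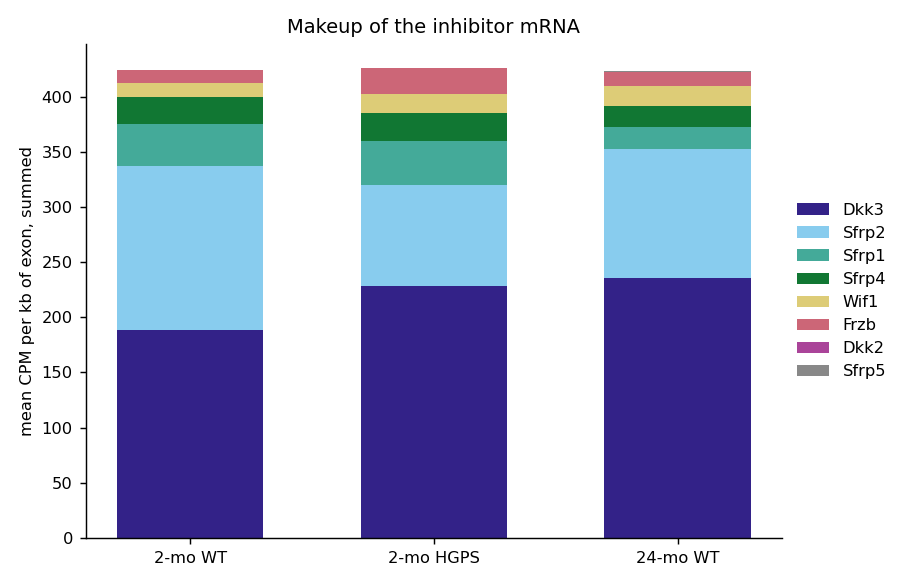
Mean CPM per kb of exon of the 8 inhibitors, stacked for each group of 6 mice, on a linear axis from 0. Sost is not included. The bars reach 423 to 427 CPM per kb, with the Sfrp2 segment shorter in HGPS (21.5% of the sum) than in 2-mo WT (35.0%) and the Frzb segment longer (5.47% against 2.66%).

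The rest of the pathway was read from lists of 83 other Wnt genes, of which 58 passed the count filter. Between HGPS and 2-mo WT, 33 of them passed the test, 7 higher and 26 lower in HGPS, with a median log2 fold change of -0.27, beside 22% higher and 21.2% lower among all genes tested, whose median was 0.0026. Between the WT ages, 12 passed (20.7%, beside 11.7% of all genes tested), 6 in each direction, with a median of 0.053, where that of all genes was 0.0083. The count in HGPS was 21 with the fat markers and 15 with the fibroblast markers as covariates, with more lower than higher in both (15 against 6 and 10 against 5).

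Among the other extracellular inhibitors, Sost stood out by its level. It encodes sclerostin, an antagonist at the Lrp co-receptors best known from bone, and its level of 408 ± 16.0 CPM per kb (SD, n = 6) in 2-mo WT was above that of Dkk3. Sost fell in HGPS, from 843 ± 33.1 to 492 ± 26.6 CPM (each SD, n = 6), a log2 fold change of -0.78 (SE 0.07, edgeR adjusted p = 2.84e-07), with no overlap. It was 962 ± 120 CPM in 24-mo WT (edgeR adjusted p = 0.0986). Tpbg, a membrane protein that dampens Wnt signaling, rose in HGPS by 0.84. Apcdd1, another membrane inhibitor, rose at 24 mo by 0.62 (edgeR adjusted p = 0.000647), while Kremen1, a Dickkopf receptor, fell by 0.27 on the log2 scale (edgeR adjusted p = 0.0499). The other 8 genes of this list, Dkk1 and Dkk4 among them, did not pass the filter.

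For the lists that follow, the shares of all genes tested that passed were 43.2% in HGPS and 11.7% at 24 mo. Of the 19 Wnt ligands, 9 were tested and 6 passed in HGPS (66.7%), 5 of them lower. Wnt5a, which signals mostly without β-catenin, fell from 44.2 ± 4.76 to 23.4 ± 3.34 CPM (each SD, n = 6), a log2 fold change of -0.92 (edgeR adjusted p = 4.75e-07). Wnt9a (-0.70), Wnt16 (-0.62), Wnt2b (-0.45) and Wnt10b fell as well, and the rare Wnt6 rose by 1.32. At 24 mo, 2 ligands passed (22.2%), both lower, Wnt16 (-0.40, edgeR adjusted p = 0.0335) and Wnt5b. Of the pair of genes needed to export ligands, Porcn, which attaches their lipid, fell in HGPS by 0.43 on the log2 scale (edgeR adjusted p = 0.00664), and Wls, their carrier, was at 304 ± 23.2 CPM in HGPS and 308 ± 21.4 CPM in 2-mo WT (edgeR adjusted p = 0.866).

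Among the 15 receptors and co-receptors tested, 8 passed in HGPS (53.3%, beside 43.2% of all genes tested). Of the 6 Frizzled genes among them, 5 fell, Fzd2 by 0.67 (edgeR adjusted p = 0.000263) and Fzd7 by 0.37 (edgeR adjusted p = 0.000125) on the log2 scale, and with them Fzd1, Fzd6 and Fzd8. Fzd3, Ryk (0.26) and Ptk7 (1.53) rose, the latter pair being receptors linked to signaling without β-catenin. Ptk7 was rare, with 7 to 21 counts per mouse in 2-mo WT. The co-receptor Lrp6 was at 253 ± 26.9 CPM in HGPS and 278 ± 15.5 CPM in 2-mo WT (edgeR adjusted p = 0.133). At 24 mo, Fzd9 rose and Fzd6 fell.

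R-spondins are secreted proteins that keep Frizzled receptors on the cell surface by acting, through Lgr receptors, on the ubiquitin ligases Znrf3 and Rnf43. Of the 5 genes tested from that group, 4 passed in HGPS, all lower, where 21.2% of all genes tested were lower. DESeq2, run without the count filter, called 5 of the 9 genes of this list there, 1 higher and 4 lower. Lgr6 fell from 366 ± 24.1 to 204 ± 27.8 CPM (each SD, n = 6), a log2 fold change of -0.85 (edgeR adjusted p = 2.92e-05), and Lgr4 by 0.65, Rspo3 by 0.67 and Znrf3 by 0.42 on that scale. At 24 mo Rspo3 went the other way, from 4.80 ± 0.722 to 8.01 ± 0.717 CPM (each SD, n = 6), with a log2 fold change of 0.74 (edgeR adjusted p = 0.000476). Rspo1 rose by 1.83 on the log2 scale (edgeR adjusted p = 0.00133). It was rare, with 6 to 17 counts per mouse in 2-mo WT and 17 to 77 in 24-mo WT, and the groups overlapped. Lgr4 fell there by 0.28 on the log2 scale (edgeR adjusted p = 0.0376).

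Inside the cell, the share of genes that passed in HGPS was close to the 43.2% of all genes tested, and those that passed were lower. Of the 11 genes of the destruction complex and its Dishevelled regulators, 5 were lower in HGPS (45.5%), Amer1 (-0.63), Dvl2 (-0.43), Btrc (-0.25), Ctnnb1 (-0.21) and Csnk1a1 (-0.16). Ctnnb1, the gene of β-catenin itself, had 1062 ± 125 CPM in HGPS and 1229 ± 58.2 CPM in 2-mo WT (each SD, n = 6) (edgeR adjusted p = 0.0365). Of 7 nuclear partners of β-catenin, 3 were lower in HGPS (42.9%), Bcl9, Pygo1 and Pygo2, which recruit the transcription machinery, with log2 fold changes of -0.64, -0.62 and -0.29. At 24 mo, edgeR called 0 of the 11, 0 of the 7 and 0 of the 2 export genes above, with 2, 1 and 0 at an unadjusted p under 0.05, and DESeq2 called 1, 0 and 0.

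Other genes that β-catenin is known to turn on did not move as one group. Nkd1, a feedback inhibitor that binds Dishevelled, fell in HGPS from 54.3 ± 6.18 to 24.5 ± 1.36 CPM (each SD, n = 6), a log2 fold change of -1.14 (SE 0.12, edgeR adjusted p = 6.47e-07), with no overlap. Tnfrsf19 (-1.06) and Znrf3 (-0.42) fell as well, whereas Ccnd1, the gene of cyclin D, rose by 0.50 (edgeR adjusted p = 0.000437) and Myc rose. Markers of dividing cells rose too, 5 of 5 in HGPS, with sums of 29.7 to 54.5 CPM against 8.44 to 14.9 CPM in 2-mo WT, and their part in the rise of Ccnd1 and Myc was not tested. At 24 mo, Ccnd1 (0.50, edgeR adjusted p = 0.00207), Apcdd1 and Nkd2 (0.72, edgeR adjusted p = 0.0229) rose, and Nkd1 was at 67.8 ± 14.5 CPM (edgeR adjusted p = 0.0738). Tnfrsf19, with only 5 to 30 counts per mouse in 24-mo WT, fell by 1.88 on the log2 scale (edgeR adjusted p = 0.00101). Thus 5 of the 8 tested readout genes passed in HGPS (62.5%, beside 43.2% of all genes tested), 2 higher and 3 lower. At 24 mo 4 passed (50%, beside 11.7%), 3 higher and 1 lower, while Axin2 passed in neither comparison. DESeq2, run without the count filter, called 7 of the 13 listed readout genes in HGPS, 4 higher and 3 lower. At 24 mo it called 4, 3 higher and 1 lower.

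**Figure D5:**
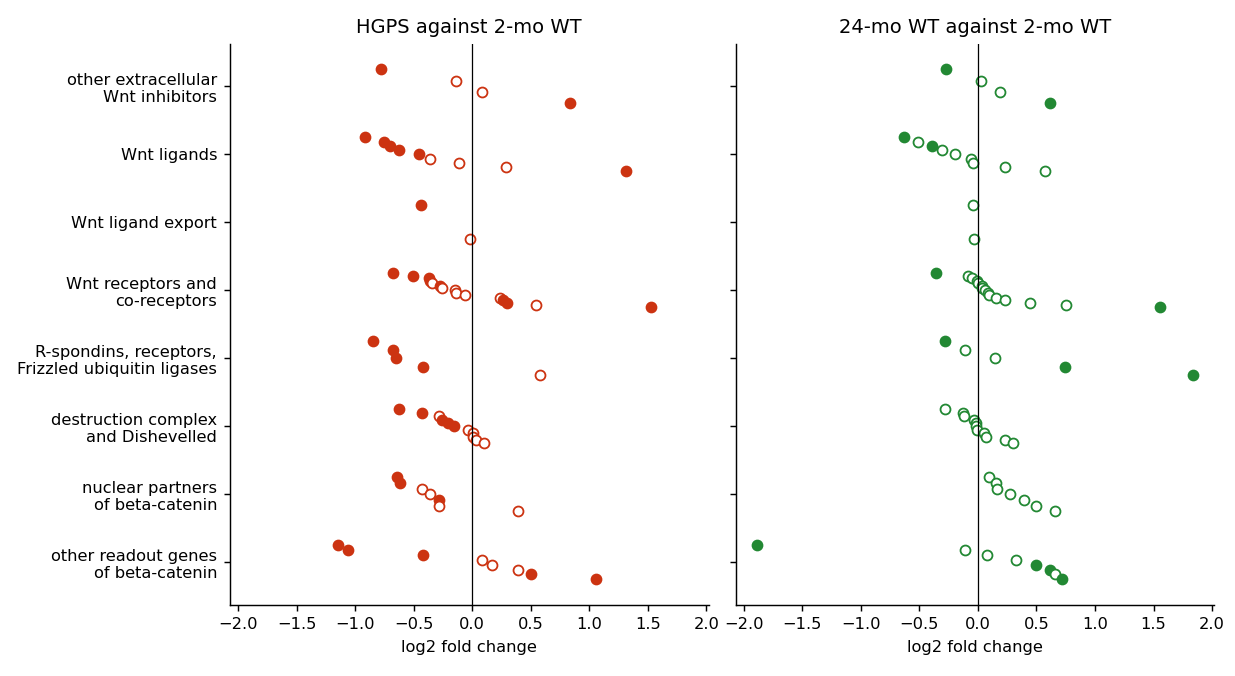
Log2 fold change of each of the 58 other tested Wnt genes (points), by role, in HGPS against 2-mo WT (left) and in 24-mo WT against 2-mo WT (right), filled where the adjusted p was under 0.05. In HGPS, filled points stand for 26 lower and 7 higher genes, and at 24 mo for 6 in each direction, with genes in more than 1 list drawn in each.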

How the data were processed

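RNA of 18 descending aortas was measured. The authors depleted ribosomal RNA and sequenced stranded libraries from both ends. They used salmon with the transcripts of GENCODE M23 (GRCm38.p6), summarized the result by gene with tximport and deposited the estimated counts as whole numbers for 54281 genes, without normalization. The submitters' processing notes also name Bowtie 0.12.2, with no role given. Symbols, coordinates and exon lengths came from GENCODE M21, built on the same assembly, which held 54107 of the identifiers. Groups, ages and replicate numbers came from the sample labels, and no column was without a sample. No pair of mice within a group had counts within sampling noise (over 45 pairs, chi-square divided by its degrees of freedom was 7.64 to 93.6).

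A gene entered the test if 6 or more mice had 10 or more counts of it (15210 genes). Quasi-likelihood tests of edgeR 4.0.16 (glmQLFit, then glmQLFTest, in R 4.3.3) used TMM scaling and one fit of the 3 groups, leaving 15 residual degrees of freedom. Adjustment of p-values, by the Benjamini-Hochberg method, was over all genes tested. Past the test means an adjusted p under 0.05. Standard errors were obtained by dividing log2 fold changes by the root of their F statistics, and intervals are 95%. Sfrp5, below the filter, was compared by two-sided exact permutation tests of mean CPM, which cannot give a p below 0.00216 for 6 against 6. CPM per kb divides CPM by the union of a gene's exons. The 9 genes and all lists were chosen with earlier results of these data known. From each other list, the genes given with values were up to 4 of smallest adjusted p among those past the test and up to 2 of highest level otherwise. Precision is set by the number of mice and, for Sfrp5, Dkk2 and the other rare genes named, by counts. Alternatives were DESeq2 1.42.0, other scalings and filters, the 2 groups alone, a replicate block, each mouse left out, marker scores as covariates and the study's cut-offs. The endothelial covariate and leaving out the 4 aortas whose endothelial markers summed to under 700 CPM were chosen after seeing the data.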

Additional observations from a re-analysis of the deposited data

Results flagged for a closer look

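In 2-mo WT, Sfrp1 was 109 CPM in mouse 2 and 168 to 199 CPM in the other 5. The gap to the nearest mouse was 0.647 of the group's range, above Dixon's 95% limit for 6 mice. It was the only one of 27 groups of values (9 genes in 3 groups) so far from its group, and chance gives such a gap in about 1 of 20 groups. The same mouse had the lowest endothelial marker sum of its group, at 534 CPM.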

How the results depend on the processing

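Over the 8 tested genes and 3 comparisons, 487 alternative values kept the direction and side of the threshold, 47 lost a call, 4 gained one and 11 changed sign, the last all in differences that did not pass. DESeq2 called 4, 3 and 5 of the genes in HGPS against 2-mo WT, 24-mo WT against 2-mo WT and HGPS against 24-mo WT, as edgeR did. The first count, 4, was 1 with fat or with fibroblast markers as covariates, 2 at the study's cut-offs and 2 to 5 with 1 mouse left out (2 without HGPS mouse 5 or 2-mo WT mouse 2). The second, 3, was 0 with fibroblast markers, 1 without the 4 aortas low in endothelial markers, 0 at the study's cut-offs and 2 to 4 with 1 mouse left out. The third, 5, was 3 with fat markers, 3 at the study's cut-offs and 4 to 5 with 1 mouse left out. The counts of other Wnt genes, 33, 12 and 33, were 21, 6 and 14 with fat markers, 15 and 4 with fibroblast markers in the first and second comparison, 12, 2 and 8 at the study's cut-offs, and 30 to 35, 8 to 12 and 27 to 36 with 1 mouse left out. The causes were not tested. Mice of different groups share a replicate number (18 same-numbered pairs, r -0.16 to 0.17, 2 of them over 0.1). With it as a block, the counts were 4, 2 and 4 for the 8 genes and 32, 11 and 31 for the others. Column labels also carry a sample number, in whose order come HGPS mice 1 to 3, all 24-mo WT, all 2-mo WT and HGPS mice 4 to 6. The WT ages do not interleave in it, and its part in the differences was not tested. Sfrp2 was 162 to 186 CPM in HGPS mice 1 to 3 and 214 to 235 CPM in HGPS mice 4 to 6, all below 2-mo WT. For the other tested genes these sets of HGPS mice overlapped. Signs changed for Sfrp1 in HGPS against 2-mo WT (-0.027 with fibroblast markers, -0.079 with endothelial markers, -0.039 without the 4 aortas, and -0.037 to 0.11 with 1 mouse left out, below 0 without 2-mo WT mouse 2), Sfrp4 in that comparison (-0.012 with fat markers, and -0.028 to 0.14 with 1 mouse left out, below 0 without HGPS mouse 6 or 2-mo WT mouse 4), Sfrp2 at 24 mo (0.20 with fibroblast markers) and Axin2 at 24 mo (-0.26 with fibroblast markers, -0.026 without the 4 aortas, and -0.059 to 0.15 with 1 mouse left out, below 0 without 24-mo WT mouse 1). The mean difference of Sfrp5 at 24 mo was 0.172 to 0.314 CPM with 1 mouse left out (exact permutation p 0.00433 to 0.0455). By the longest transcript, Axin2 was at 0.999 CPM per kb in 2-mo WT.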

Other observations

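The genes whose levels followed each of the 8 tested genes most closely from mouse to mouse were found from log2 CPM taken as deviations from the group means, leaving out genes whose mean count was under 100. Points of 18 mice share libraries and depth. For each gene, 10707 others were searched (10708 for Dkk2 and Axin2), and the highest r of so wide a search can be large by chance. The values are descriptions. Sfrp1 stood apart by how closely others followed it, with Pearson's r of 0.97 for Ptgs1 (cyclooxygenase), 0.97 for Ramp2 (a receptor-modifying protein) and 0.96 for Enpp6, and Spearman's rho of 0.94, 0.91 and 0.89. The closest to the other genes were Brip1 for Sfrp2 (r 0.84), Pdpn, which encodes podoplanin, for Sfrp4 (0.81), Thbs1, the gene of thrombospondin, for Frzb (0.83), Glb1l2 for Dkk2 (0.80), Sdf4 for Dkk3 (0.85), Leng9 for Wif1 (0.86) and Dalrd3 for Axin2 (0.85).

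Among themselves the 8 genes followed each other weakly. The highest r of the 28 pairs was 0.60, between Sfrp4 and Dkk2, then 0.57, between Sfrp1 and Frzb, and the lowest was -0.53, between Sfrp2 and Wif1. Macrophage markers, which no comparison above uses, rose 6 of 6 in HGPS, with sums of 767 to 1232 CPM against 409 to 630 CPM in 2-mo WT.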
